A study of Mus musculus and Sus scrofa with 18 samples.

Results

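The striatum of HD 140Q-KI mice treated with CasRx and HTT guides was compared with that of HD 140Q-KI mice that received CasRx with a control guide. The comparison takes every mouse library labelled for these groups, 3 treated and 3 untreated, 6 of the 18 samples of the series, and all 19463 genes that passed the low-count filter of the 55357 genes counted. HD 140Q-KI mice are heterozygous for a knock-in allele in which exon 1 of the mouse Htt gene is replaced by human HTT exon 1 with a long CAG repeat. Both groups carry that allele and were injected into both striata at 6 months of age with AAV9 and sampled 6 weeks later. Untreated mice received AAV9-CasRx with AAV9-Ctrl gRNA. Treated mice received AAV9-CasRx with 2 guide vectors, 1 for HTT gRNA1 and HTT gRNA2 and 1 for HTT gRNA3 and HTT gRNA4. CasRx was driven by the CAG promoter, which is active in most cell types, and the guides by U6 promoters on vectors that also make GFP. The 3 WT mice, shown here as a reference level, received AAV9-Ctrl gRNA without CasRx, so a difference from WT covers the knock-in allele and CasRx together. Ppp1r1b, a defining transcript of striatal projection neurons, was present in every library, at 511, 606 and 568 CPM (read counts scaled to library size, with TMM factors) in untreated, 869, 841 and 807 CPM in treated and 1741, 2458 and 2089 CPM in WT mice. Each library is the poly(A) RNA of 1 mouse, read from its 3′ end.

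Huntingtin is a large scaffold protein made in every brain cell, and its expanded form harms the GABA-releasing projection neurons of the striatum before most other cells. These neurons form an indirect pathway, which makes the dopamine receptor D2, an adenosine receptor that raises cAMP and enkephalin, and a direct pathway, which makes the dopamine receptor D1, substance P and dynorphin. Both couple their receptors to cAMP through a shared set of G proteins, adenylate cyclases and phosphodiesterases, and loss of this transcript set is a known feature of HD striatum. CasRx is an RNA-guided ribonuclease of the Cas13d family that cuts RNA paired with its guide.

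The guide sequences below are shown because they define what differed between the groups. They are written 5′ to 3′ as DNA letters, and capitals mark the longest run that a pair of guides has in common, CCAGGGTCGCC for HTT gRNA1 and Ctrl gRNA and GCTGAGGAAGCTGAG for HTT gRNA3 and HTT gRNA4.
HTT gRNA1, from the first vector, which shares its capitals with the control: aggccttcatcagcttttCCAGGGTCGCCa
HTT gRNA2, from the same vector, with no long shared run: ggtcggtgcagcggctcctcagccacagcc
HTT gRNA3, from the other vector, capitals at its 5′ end: GCTGAGGAAGCTGAGgaggcggcggcggcg
HTT gRNA4, from that vector too, capitals at its 3′ end: gtgcctgcggcggcgGCTGAGGAAGCTGAG
Ctrl gRNA, the guide of untreated and WT mice: cggaattcatccagccaCCAGGGTCGCCg
The HTT guides are 30 bases long and the control guide 29, with a GC content from 56.7% in HTT gRNA1 to 76.7% in HTT gRNA3. The 11 bases that the control guide shares with HTT gRNA1 lie near the 3′ end of both. In the transcripts of mouse Htt (GENCODE M21, GRCm38), the longest perfect antisense match was 23 bases for HTT gRNA1 (guide bases 3 to 25), 16 for HTT gRNA3, and 14 for HTT gRNA2 and HTT gRNA4.

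The libraries were of similar depth, with 28628414 to 32102121 counts in the 6 HD mice, but they were not matched for sex, immune genes or cortical markers. Y-linked counts were 4683 in untreated mouse 1 and 0 in the other 5 HD mice, while the 3 WT mice had 3435 to 5005. The X inactivation transcript Xist stood at 0.596, 851 and 826 CPM in the untreated mice and 983, 973 and 952 CPM in the treated mice. Untreated mouse 3 had the highest level of interferon, MHC and T cell genes of all 9 mice. The summed level of cortical projection neuron markers was higher in each untreated mouse than in each treated mouse, at 4739, 4103 and 4434 CPM in the untreated, 3493, 3338 and 3359 CPM in the treated and 3741, 2483 and 2651 CPM in the WT mice. All 24 cortical markers passed the low-count filter and were above 0 in every library. Leaving out untreated mouse 1 leaves only mice without Y-linked counts in both HD groups. Values of fits without 1 library are given for lists whose counts or medians moved most, and those with the cortical marker level as a covariate, an alternative added after the data were seen, for the neuronal lists. Because the cortical level did not overlap between the HD groups, this covariate and the treatment cannot be told apart among the HD mice.

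Htt, the targeted gene (ENSMUSG00000029104, chromosome 5), was slightly lower in the treated mice. It stood at 145, 140.4 and 149.6 CPM in the untreated mice, 139.7, 131 and 136 CPM in the treated mice and 189, 191 and 182 CPM in WT. Each treated mouse lay below each untreated mouse, and both HD groups lay below WT without overlap. The log2 fold change of treated over untreated was −0.10 (SE 0.06, 95% interval −0.23 to 0.03), with an adjusted p of 0.942 in edgeR's quasi-likelihood test. The two-sided exact permutation test of mean log2 CPM gave p = 0.1, the smallest that 3 mice against 3 can give. Reads were taken from the 3′ ends of transcripts, which the knock-in and the normal allele share, so the alleles cannot be told apart.

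Few genes passed single-gene tests. At an unadjusted P under 0.05, 487 genes (2.50%) were higher and 584 (3.0%) lower in treated mice (5.50% in all), where the 0.05 level alone gives 973 of 19463 genes. These shares, 2.50% higher and 3.0% lower, are the background for every count of list members at that P below. DEGs, with that P and a fold change of at least 2, numbered 150 (0.771%), of which 70 (0.360%) were higher and 80 (0.411%) lower. No gene passed an adjusted p of 0.05 in edgeR (0.00%), the smallest value being 0.348, whereas 48 genes did so in DESeq2, 37 higher (0.225%) and 11 lower (0.0670%). Among the lower ones was the Y-linked gene Ddx3y (DESeq2 adjusted p = 7.88e-07). Of the HD mice, only untreated mouse 1 had Y-linked counts. The median log2 fold change of all tested genes was −0.01. Leaving out untreated mouse 3 gave 263 DEGs, 184 of them higher, leaving out untreated mouse 2 gave 251, and leaving out untreated mouse 1 gave 212, of which 134 were lower. Without treated mouse 1, edgeR passed 1 gene at an adjusted p of 0.05, the pseudogene Vdac3-ps1 (0.0352), which was at 11.6, 11.9 and 11.2 CPM in untreated and 14.6, 2.83 and 3.65 CPM in treated mice, so that treated mouse 1 was the highest of all 6. The groups did not overlap for 1347 genes (6.92%) that were higher and 1719 (8.83%) that were lower in treated mice.

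The plot of fold change against level places the lists described below among all genes.

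**Figure D1:**
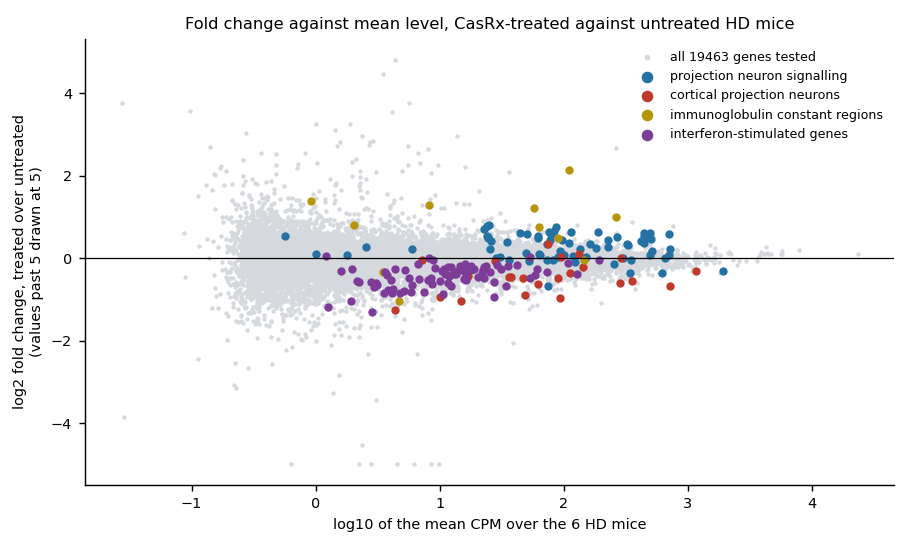
Log2 fold change of treated over untreated mice against the log10 mean CPM over the 6 HD mice, for all 19463 genes tested (grey) and for 4 gene lists (coloured). Most projection neuron genes (blue) lie above 0, and most cortical (red) and interferon-stimulated genes (purple) below it.

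Most receptor and signalling genes of projection neurons had higher fitted levels in treated mice. Of the 74 genes of this list that were tested, 31 were higher and 3 lower in treated mice at an unadjusted P under 0.05, against 2.50% and 3.0% of all genes. The median log2 fold change was 0.26, beside −0.01 over all genes, and 61 of the 74 fitted values were above 0. Treated and untreated mice did not overlap for 40 genes that were higher (6.92% of all genes) and 6 that were lower (8.83%). DESeq2 passed 13 of the 74 at an adjusted p of 0.05, all higher. The counts at P under 0.05 were 27 higher and 1 lower without untreated mouse 1, and 29 and 2 without untreated mouse 3. They ranged from 23 higher (without treated mouse 3) to 36 higher (without WT mouse 2) when 1 library was left out. With the cortical covariate they were 18 and 0, and the median was 0.12. Since that covariate separates the HD groups, the drop is not a measure of a cortical share. Whether the lower cortical signal had a part in the differences of this list was not tested. In a bulk sample, fewer cells of a type and less RNA per cell cannot be told apart.

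Of the indirect pathway genes, Adora2a, Drd2, Gpr6 and Penk were each higher in every treated mouse than in every untreated mouse. Adora2a, the adenosine receptor of indirect pathway neurons (chromosome 10), stood at 58.5, 76.1 and 59.3 CPM in untreated and 108, 110.0 and 109 CPM in treated mice, with a log2 fold change of 0.75 (SE 0.11, adjusted p = 0.348). The 3 treated mice lay within a few CPM of each other and above all untreated mice, while WT mice had 247, 302 and 299 CPM. Drd2, the dopamine receptor D2, was at 56.6, 66.6 and 56.4 CPM in untreated and 86.3, 93.4 and 100.3 CPM in treated mice and 178, 269.9 and 219 CPM in WT, a log2 fold change of 0.64 (SE 0.14). Gpr6, an orphan receptor of the same neurons that raises cAMP, was at 15.6, 20.5 and 16.1 CPM in untreated and 29.3, 27.5 and 28.6 CPM in treated mice. Its log2 fold change was 0.71 (SE 0.17), and its WT level was 57.4, 95.1 and 76.8 CPM. Treated and untreated mice did not overlap for any of these 3 receptors, and the treated level stayed below each WT mouse. Penk, the precursor of enkephalin, was at 159, 224 and 243 CPM in untreated and 301, 319 and 330.3 CPM in treated mice, with a log2 fold change of 0.60 (SE 0.18, adjusted p = 0.886). Drd2, Gpr6, Drd1, Pdyn, Nts and the signalling genes described below other than Rgs9, Sh3rf2 and Cd4 are outside the naming rule and were picked for their roles after their values were seen.

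Of the direct pathway genes, Tac1, Drd1 and Pdyn were each higher in every treated mouse than in every untreated mouse. Tac1, the precursor of substance P on chromosome 6, stood at 89.6, 101 and 87.7 CPM in untreated and 156, 156 and 171 CPM in treated mice, with a log2 fold change of 0.80 (SE 0.12, adjusted p = 0.348). Its WT level was 147, 181 and 210.3 CPM, so that treated and WT mice overlapped. Drd1, the dopamine receptor D1, was at 57.5, 74.2 and 56.9 CPM in untreated and 94.8, 90.8 and 98.9 CPM in treated mice and 149, 189 and 245 CPM in WT, with a log2 fold change of 0.59 (SE 0.17). Here too every treated mouse was above every untreated mouse and below every WT mouse. Pdyn, the precursor of dynorphin, was at 42.2, 47.3 and 56.2 CPM in untreated and 66.9, 59.4 and 81.3 CPM in treated mice (log2 fold change 0.51, SE 0.18). Pdyn was no longer at P under 0.05 without untreated mouse 1 (0.43), untreated mouse 2 (0.50) or treated mouse 3 (0.39), or with the cortical covariate (0.23). Of 15 peptide genes tested, 5 were higher at P under 0.05, namely Tac1, Pdyn, Penk, Nts and Pthlh. The 3 lower ones were Npy, Crh and Cck, which interneurons or cortical neurons make. Over all genes, 2.50% were higher and 3.0% lower at that P. Npy, neuropeptide Y, was at 52.3, 41.3 and 61.7 CPM in untreated and 38.5, 36.3 and 35.3 CPM in treated mice (adjusted p = 0.886). Npy was not at P under 0.05 without untreated mouse 3 (log2 fold change −0.35) or with the cortical covariate (−0.28). The median of the peptide list was −0.20, and it ranged from −0.37 to −0.04 without 1 library. With the cortical covariate it was 0.04, with 4 higher and 0 lower members. Without untreated mouse 1 there were 4 higher and 2 lower members, and without untreated mouse 3, 5 and 2.

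The shared signalling genes followed the receptors. Among them, Rgs9, which speeds the shut-off of G proteins coupled to dopamine receptors, stood at 129.5, 170.1 and 141 CPM in untreated and 232, 232 and 221 CPM in treated mice, with a log2 fold change of 0.64 (SE 0.13, adjusted p = 0.736). Ppp1r1b encodes DARPP-32, the phosphatase inhibitor that integrates dopamine and glutamate signals, and was at 511, 606 and 568 CPM in untreated and 869, 841 and 807 CPM in treated mice. Its log2 fold change was 0.58 (SE 0.13, adjusted p = 0.736), against 1741, 2458 and 2089 CPM in WT. Pde10a, the phosphodiesterase most abundant in these neurons, was at 356, 419.7 and 307 CPM in untreated and 548, 517 and 523 CPM in treated mice (log2 fold change 0.55, SE 0.13). In all 3 genes the groups did not overlap. Gng7 and Gnal, subunits of the G protein that activates adenylate cyclase, and Adcy5, the adenylate cyclase of the striatum, had log2 fold changes of 0.62, 0.43 and 0.47, each at an unadjusted P under 0.05. With the cortical covariate Gng7 was at 0.38, and Gnal (0.22) and Adcy5 (0.25) did not pass. Sh3rf2, a ring-finger protein of chromosome 18, stood at 16.1, 20.6 and 16 CPM in untreated and 28, 31.2 and 31.6 CPM in treated mice, with a log2 fold change of 0.78 (SE 0.12, adjusted p = 0.348). Cd4, a T cell coreceptor that also belongs to the striatal list, was at 18.2, 21.8 and 14.5 CPM in untreated and 32.5, 31.6 and 31.5 CPM in treated mice and 62.6, 79.8 and 73.5 CPM in WT, while Cd8a, a coreceptor of cytotoxic T cells, was at 1.16, 2.75 and 19.1 CPM in untreated and 0.797, 1.32 and 4.55 CPM in treated mice.

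**Figure D2:**
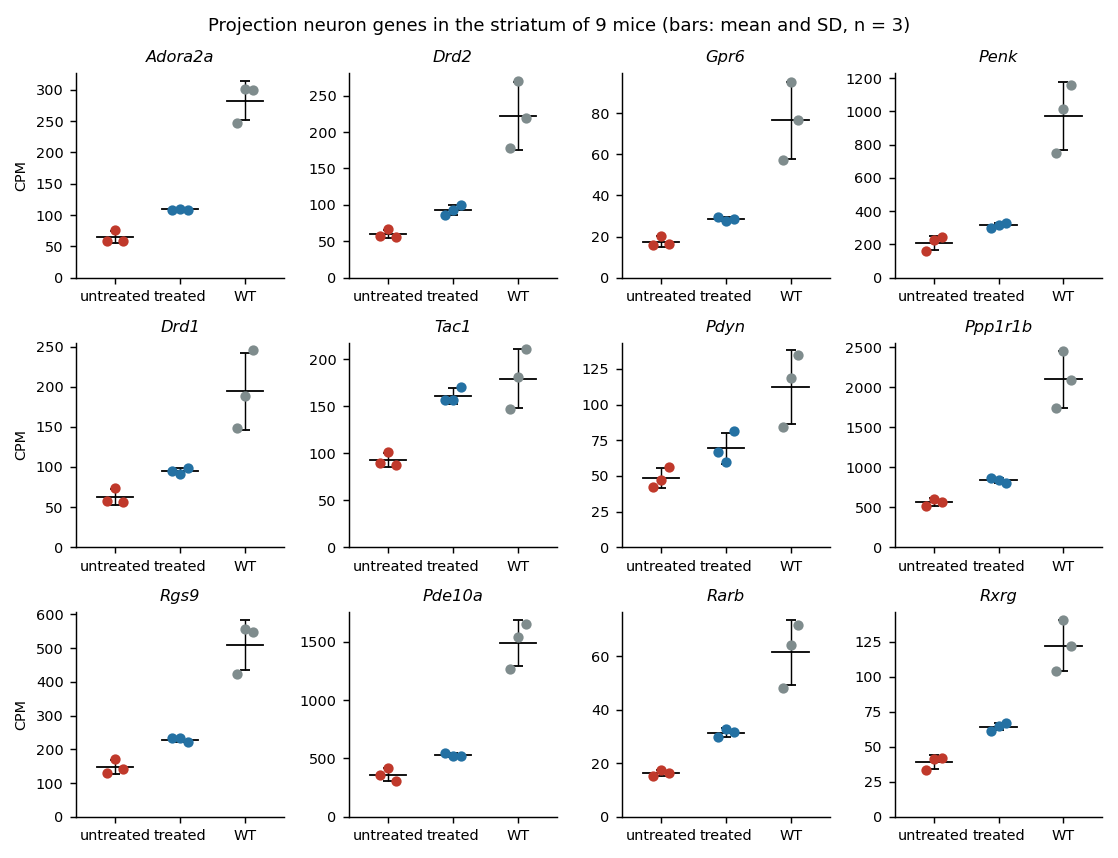
CPM of 12 genes of striatal projection neurons in each of 9 mice, with the group mean and SD (n = 3), from a y axis that starts at 0. In all 12 genes the 3 treated mice lie above the 3 untreated mice, and in all but Tac1 they lie below the 3 WT mice.

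The 3 list members that were lower at P under 0.05 were Rasgrf2, Ddit4l and Dgkz. Rasgrf2, an exchange factor for Ras, stood at 92.2, 80.9 and 100.2 CPM in untreated and 63.4, 51.3 and 56.9 CPM in treated mice, with a log2 fold change of −0.67 (SE 0.25), and at 74.6, 38.9 and 34.7 CPM in WT. Its order of groups was that of the cortical markers, highest in the untreated mice. Ddit4l, an inhibitor of mTOR signalling, had a log2 fold change of −0.42, and Dgkz, a diacylglycerol kinase, of −0.35. With the cortical covariate Rasgrf2 was at −0.22, Ddit4l at −0.41 and Dgkz at −0.10, none of them at P under 0.05, and without untreated mouse 1 Ddit4l (−0.25) and Dgkz (−0.28) did not pass either. Rasgrf2 did not pass without treated mouse 2 (−0.59) or untreated mouse 3 (−0.60), and Dgkz did not pass without any 1 of the HD mice or without WT mouse 2.

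**Figure D3:**
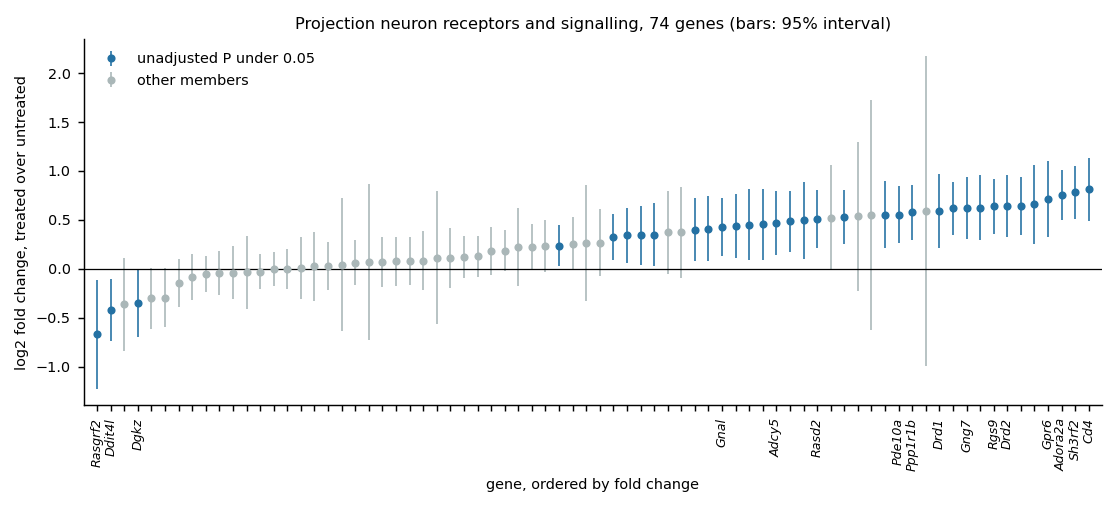
Fitted log2 fold change of treated over untreated mice for each of the 74 projection neuron receptor and signalling genes, with its 95% interval, ordered by size, and with the symbols of the genes named in the text. The 31 higher and 3 lower genes at an unadjusted P under 0.05 are blue, and the values run from −0.67 to 0.81.

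Set beside WT, the same list was low in both HD groups. In untreated mice 62 of the 74 genes were lower than in WT at an adjusted p of 0.05 in edgeR, against 6.10% of all genes (10.7% in either direction), with a median log2 difference of −1.04. In treated mice 51 were lower, against 2.78% of all genes (3.69% in either direction), with a median of −0.77, and neither group had a member that was higher than in WT at that threshold. Both comparisons use the same 3 WT mice, which had Y-linked counts in every library and no CasRx. The mean log2 CPM of the list, relative to WT, was −1.13, −0.997 and −1.10 in the untreated mice and −0.78, −0.85 and −0.79 in the treated mice, so the HD groups did not overlap, and the WT mice ranged from −0.18 to 0.10.

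Transcription factors of striatal neurons led the whole ranking by P. Of 32 tested, 12 were higher and 2 lower at P under 0.05, against 2.50% and 3.0% of all genes. The median log2 fold change was 0.26, beside −0.01 over all genes. Meis1, a homeobox factor of chromosome 11, had the smallest P of all genes and stood at 10, 8.9 and 9.55 CPM in untreated and 16, 17.5 and 16.1 CPM in treated mice, with a log2 fold change of 0.80 (SE 0.11, adjusted p = 0.348). In WT it was at 15.2, 12.8 and 13.5 CPM, so that the treated mice lay above WT as well. Meis1 is also on the list of thalamus, pallidum and septum genes. Rarb, the retinoic acid receptor beta of chromosome 14, which acts in striatal projection neuron development, was at 15.4, 17.6 and 16.2 CPM in untreated and 29.7, 32.8 and 31.7 CPM in treated mice and 48.2, 64.3 and 71.8 CPM in WT, with a log2 fold change of 0.94 (SE 0.14, adjusted p = 0.348). Its partner receptor Rxrg, on chromosome 1, was at 33.7, 41.6 and 42.1 CPM in untreated and 61.5, 64.9 and 66.8 CPM in treated mice, with a log2 fold change of 0.72 (SE 0.12, adjusted p = 0.398). Dlx6, a homeobox factor of forebrain GABA neurons, was at 11.9, 13.9 and 13.2 CPM in untreated and 19.2, 19.3 and 20.1 CPM in treated mice (log2 fold change 0.59, SE 0.14). All 4 were called higher by DESeq2 at an adjusted p of 0.05. The 2 that were lower, Bcl6 and Mef2c, had log2 fold changes of −0.36 and −0.55, and Mef2c is also on the cortical list. Counts were 7 higher and 1 lower without treated mouse 3, 9 and 0 without untreated mouse 1, 9 and 1 without untreated mouse 3, and 5 and 1 with the cortical covariate, under which the median was 0.15 and Mef2c (−0.14) did not pass.

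A few other genes were among the 10 smallest P values. Slc35d3, a transporter-like protein of chromosome 10 that is made in direct pathway neurons, stood at 14.7, 18 and 13.8 CPM in untreated and 30.2, 30.4 and 26.1 CPM in treated mice, with a log2 fold change of 0.90 (SE 0.14, adjusted p = 0.36) and 26.9, 30.7 and 36.2 CPM in WT. Doc2b, a calcium sensor of vesicle release on chromosome 11, was at 45.7, 56.1 and 44.4 CPM in untreated and 79.4, 78.2 and 79.6 CPM in treated mice, with a log2 fold change of 0.70 (SE 0.13, adjusted p = 0.736). The long noncoding RNA Gm39244 of chromosome 8 was at 2.21, 2.82 and 2.75 CPM in untreated and 5.79, 4.91 and 5.39 CPM in treated mice, with a log2 fold change of 1.05 (SE 0.17, adjusted p = 0.398). No mouse of one group overlapped with the other in these 3 genes.

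Cholinergic genes were among the interneuron markers that were higher. Of 19 interneuron markers tested, 4 were higher and 2 lower at P under 0.05, against 2.50% and 3.0% of all genes, with a median of 0.06. The higher ones were Slc18a3, Lhx8, Pthlh and Chat, and the lower ones Npy and Cck. Slc18a3, which loads acetylcholine into vesicles, was at 4.14, 3.66 and 3.81 CPM in untreated and 6.53, 6.69 and 6.78 CPM in treated mice (log2 fold change 0.78, SE 0.17), and Lhx8, a factor that sets cholinergic identity, at 2.14, 2.55 and 2.0 CPM in untreated and 4.26, 3.76 and 5.07 CPM in treated mice (log2 fold change 0.97, SE 0.22). Neither gene overlapped between the groups. The list had 3 higher and 1 lower without untreated mouse 1, and 3 and 0 without untreated mouse 3 or with the cortical covariate. Nkx2-1, a factor of the ventral forebrain on the list of regions beside the striatum, was the DEG of that list and stood at 1.82, 2.12 and 1.53 CPM in untreated and 3.37, 3.66 and 4.1 CPM in treated mice and 3.17, 8.4 and 6.45 CPM in WT, with a log2 fold change of 1.02. It was under 2-fold without untreated mouse 3 (0.91), and at 0.53 and not at P under 0.05 with the cortical covariate.

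Cortical markers had mostly lower fitted levels in treated mice. Of 24 tested, 21 fitted values were below 0, with a median log2 fold change of −0.45. At P under 0.05, 6 were lower and 1 higher, against 3.0% and 2.50% of all genes. Without overlap between the groups, 15 were lower (8.83% of all genes). Nrn1, a neurite growth protein, stood at 131, 107 and 133 CPM in untreated and 69, 53.9 and 66 CPM in treated mice, with a log2 fold change of −0.97 (SE 0.32, adjusted p = 0.886). The DEGs of the list were Neurod1 and Bhlhe22, factors of excitatory neurons. Neurod1 was at 6.31, 6.85 and 5.23 CPM in untreated and 2.6, 1.98 and 3.17 CPM in treated mice and Bhlhe22 at 21, 18.2 and 20.9 CPM in untreated and 11.2, 9.06 and 9.08 CPM in treated mice. Neurod1 did not pass P of 0.05 without treated mouse 1 or 2 or untreated mouse 2, nor Bhlhe22 without any 1 of the 6 HD mice. The higher member was Tle4, which is also on the transcription factor list. Slc17a7, the vesicular glutamate transporter of cortical neurons, was chosen after values were seen and stood at 893, 784 and 963 CPM in untreated and 571, 578 and 513 CPM in treated mice and 684, 301 and 165 CPM in WT, with adjusted p = 0.931. WT mice spread over a wide range, with WT mouse 1 the highest of them for all 4 genes. The count rests on few libraries, with 2 lower members and a median of −0.29 without untreated mouse 1, 3 without untreated mouse 2 or 3 or without treated mouse 3, 1 without treated mouse 1 or 2, and 11 without WT mouse 1 or 3.

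Presynaptic and channel genes leaned lower, beside the cortical markers. Of 55 vesicle release genes, 8 were lower (14.5%) and 6 higher (10.9%) at P under 0.05, against 3.0% and 2.50% of all genes. The median was −0.15, and 21 were lower without overlap (8.83% of all genes). The higher ones included Doc2b, Sv2c, Syt6 and Synpr, of which Sv2c, a vesicle protein found mainly in the basal ganglia, was at 98.2, 105 and 97.8 CPM in untreated and 141, 129.6 and 149 CPM in treated mice (log2 fold change 0.48, SE 0.12). Of 58 potassium channel genes, 13 were lower (22.4%) and 5 higher (8.62%), with a median of −0.22 (17 and 2 members without untreated mouse 3). Kcnj2, an inward rectifier that sets the resting potential of projection neurons, was at 22.7, 26.4 and 23.8 CPM in untreated and 33.2, 32.7 and 33.8 CPM in treated mice, higher by 0.45 on the log2 scale. The 67 axon guidance genes had 7 lower (10.4%) and 5 higher (7.46%) members and a median of −0.09. With the cortical covariate the medians were −0.02 for vesicle release, −0.08 for potassium channels and −0.03 for axon guidance, with 0, 3 and 4 lower members, and without untreated mouse 1 the lower members were 1, 5 and 6. Without treated mouse 2 the lower members were 0, 6 and 4, without WT mouse 1 they were 15, 20 and 16, and without WT mouse 3 they were 15, 16 and 15.

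Receptor, scaffold and the remaining neuronal lists had few members past P of 0.05 each. Their shares ranged from 0.0% to 16.7% higher and from 4.0% to 11.8% lower, beside 2.50% and 3.0% of all genes. Glutamate receptors had 1 higher and 1 lower of 25, the latter a DEG, Grm2, a presynaptic metabotropic receptor, at 23.8, 24.2 and 24.9 CPM in untreated and 13.7, 10.4 and 11.8 CPM in treated mice and 11.9, 6.64 and 2.96 CPM in WT. GABA genes had 1 higher and 2 lower of 21, among them Gabbr2, a GABA-B subunit, at a log2 fold change of −0.48 (SE 0.15). With the cortical covariate Grm2 was at −0.36 and Gabbr2 at −0.27, neither at P under 0.05, and both lists had 0 members past it. Postsynaptic scaffolds had 0 higher and 4 lower of 34, led by Iqsec2, an exchange factor of the postsynaptic density (−0.25, SE 0.07), with 1 and 2 without untreated mouse 1, 0 and 3 without untreated mouse 3, and 0 and 1 with the cortical covariate. Sodium channels had 2 higher and 1 lower of 12. Of 45 immediate early genes, 4 were higher and 2 lower, including Fosb, a factor induced by dopamine signalling, at 27.9, 23.6 and 18.4 CPM in untreated and 30.5, 36.1 and 36.4 CPM in treated mice. Neurotrophins and their receptors had 1 higher and 2 lower of 18. Gfra2, a receptor of the GDNF family, had a log2 fold change of −0.87 (SE 0.27), and of −0.38 with the cortical covariate.

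The mean level of interferon-stimulated genes was above WT in every HD mouse, and no member was past P of 0.05 between the HD groups with all libraries. Of 81 interferon-stimulated genes tested, 0 were higher and 0 lower at P under 0.05, although 78 fitted values were below 0 and the median was −0.39. The mean log2 CPM of the list, relative to WT, was 1.5, 1.93 and 3.72 in untreated mice and 1.53, 1.83 and 3.06 in treated mice, so the spread within each group exceeded the gap between them. Against WT, 54 of the 81 were higher at an adjusted p of 0.05 in edgeR in untreated mice (4.58% of all genes) and 9 in treated mice (0.904%). The median log2 differences from WT were closer than these counts, at 2.55 in untreated and 2.15 in treated mice. Herc6, an interferon-induced ligase of the ISG15 system, stood at 19.8, 20.6 and 57.7 CPM in untreated and 15.8, 17.3 and 33.2 CPM in treated mice, and Ifi206, a DNA-sensing family member, at 1.09, 1.85 and 9.14 CPM in untreated and 0.552, 0.988 and 3.36 CPM in treated mice. Both were highest in untreated mouse 3, followed by treated mouse 3. Without untreated mouse 3 the direction turned, with a median of 0.57 and 78 of 81 values above 0, of which 5 were higher at P under 0.05. Without treated mouse 3 the median was −1.07, with all 81 values below 0 and 13 lower at P under 0.05.

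Medians of the other interferon, MHC and cytokine lists also turned positive without untreated mouse 3. The 23 interferon-gamma GTPases had a median of −0.49, 1.17 without untreated mouse 3 and −1.65 without treated mouse 3, where 3 were lower at P under 0.05. Gbp8, a guanylate-binding protein, was at 1.26, 3.76 and 29.7 CPM in untreated and 1.72, 3.03 and 12.4 CPM in treated mice, and Gbp5, which promotes inflammasome assembly, at 4.84, 9.84 and 66.1 CPM in untreated and 7.57, 9.46 and 33.9 CPM in treated mice. MHC class I and peptide loading had a median of −0.37 over 29 genes, 0.68 without untreated mouse 3 and −0.85 without treated mouse 3. MHC class II had −0.49 over 16 genes, 1.10 without untreated mouse 3, with 9 members higher at P under 0.05, and −0.80 without treated mouse 3. H2-Ab1, a class II chain, was at 4.84, 14.5 and 210.3 CPM in untreated and 8.79, 22 and 71.5 CPM in treated mice, and Ciita, the master regulator of class II genes, at 2.03, 2.59 and 14.5 CPM in untreated and 1.69, 2.83 and 4.17 CPM in treated mice. None of these 4 genes was past P of 0.05 with all 6 HD mice, and the groups overlapped in each. Nucleic acid sensors, chemokines and inflammatory cytokines had medians of −0.21, −0.34 and −0.17, with 1 chemokine gene higher and 1 cytokine gene lower, and without untreated mouse 3 each had 6 higher members. The chemokine list held 1 DEG, the scavenging receptor Ackr4, at 0.386, 0.134 and 0.238 CPM in untreated and 0.552, 0.428 and 0.937 CPM in treated mice, and it did not pass P of 0.05 without treated mouse 3, untreated mouse 2 or untreated mouse 3.

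T cell and cytotoxic lymphocyte genes had the lowest median of the immune lists. Of 57 tested, 55 fitted values were below 0, with a median log2 fold change of −0.89. At P under 0.05, 2 were lower and 1 higher, against 3.0% and 2.50% of all genes. The higher one was Cd4, described above. The lower ones were Cd7, a lymphocyte surface protein and the DEG of the list, at 1.02, 0.638 and 1.56 CPM in untreated and 0.49, 0.461 and 0.323 CPM in treated mice, and Tox, a nuclear factor of T cells that neurons also make, at 19.9, 20.2 and 13 CPM in untreated and 13.9, 12.3 and 12.8 CPM in treated mice. Cd8a, given above, was highest in untreated mouse 3, and the groups overlapped. Relative to WT, the list mean was 1.09, 1.89 and 4.06 in untreated mice and 1.45, 2.05 and 2.63 in treated mice. Without untreated mouse 3 the median was 0.63, with 9 higher and 1 lower, and without untreated mouse 1 it was −1.23, with 1 higher and 11 lower of 66 tested. Without treated mouse 3 it was −1.15, with 1 higher and 4 lower of 58 tested. Without treated mouse 2 there were 1 higher and 0 lower. Tox was not at P under 0.05 without untreated mouse 1 or 2 or treated mouse 2 or 3, nor Cd7 without untreated mouse 3 or treated mouse 2 or 3.

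**Figure D4:**
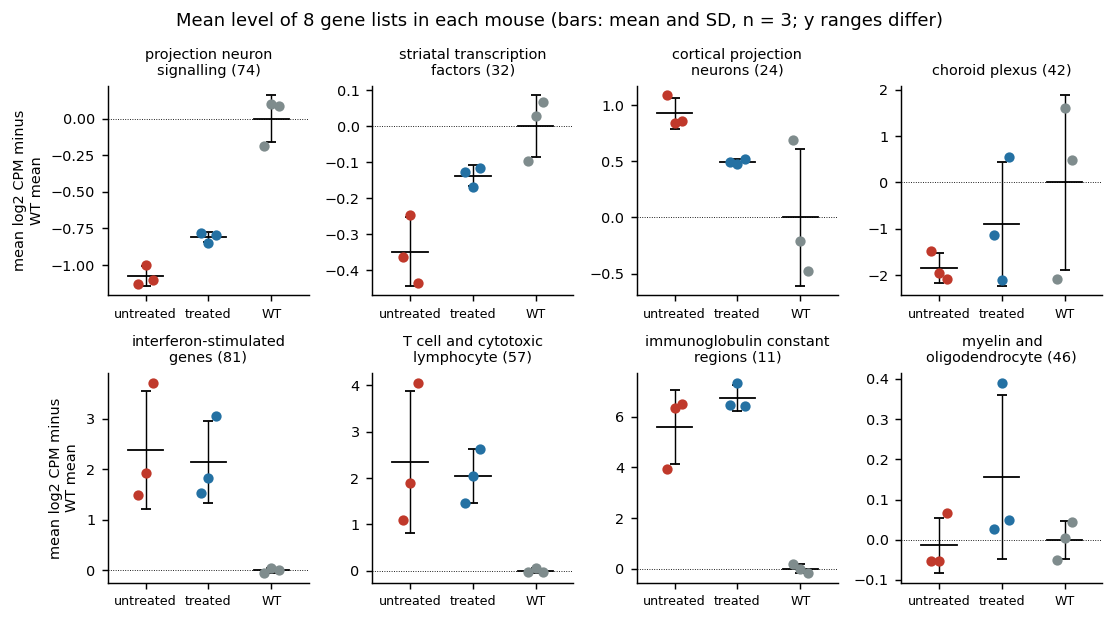
Mean log2 CPM of 8 gene lists in each mouse, relative to the WT mean, with the number of genes tested in brackets and the group mean and SD (n = 3). The HD groups do not overlap for projection neuron signalling, striatal transcription factors and cortical projection neurons, whereas untreated mouse 3 is the highest mouse for interferon-stimulated and T cell genes.

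Immunoglobulin genes, the products of plasma cells, made up 11 of the 70 higher and 2 of the 80 lower DEGs. The 19463 genes tested included 11 constant region genes and 75 variable segments. Over all genes tested, 0.360% were higher DEGs and 0.411% lower DEGs. Ighg2c, the constant region of IgG2c on chromosome 12, stood at 11.3, 43.2 and 66.4 CPM in untreated and 189, 207 and 140.3 CPM in treated mice, with 2.95, 2.35 and 0.233 CPM in WT. All treated mice were above all untreated mice, with a log2 fold change of 2.15 (SE 0.60, adjusted p = 0.821). Ighg2b, the constant region of IgG2b, was at 14.6, 40.4 and 48.4 CPM in untreated and 44.1, 128 and 67.3 CPM in treated mice and overlapped between the groups (log2 fold change 1.21, SE 0.50). Igkc, the kappa light chain constant region, was at 27.2, 137 and 364 CPM in untreated and 259, 492 and 308 CPM in treated mice, with adjusted p = 0.967. Untreated mouse 1, which alone among the HD mice had Y-linked counts, was the lowest for all 3. Of 11 constant region genes tested, 2 were higher and 0 lower at P under 0.05 (1 higher without untreated mouse 1 or treated mouse 3, and 6 without untreated mouse 3). Ighg2b was not at P under 0.05 without untreated mouse 1 (0.85), untreated mouse 2 (1.35), treated mouse 2 (0.70) or treated mouse 3 (1.33). Against WT all 11 were higher in both HD groups at an adjusted p of 0.05.

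Variable segments differed from mouse to mouse. Only 75 of the 348 Ighv, Igkv and Iglv genes passed the low-count filter, and the 11 at P under 0.05 were all DEGs, 9 higher and 2 lower (27 and 2 without untreated mouse 3, 4 and 10 without untreated mouse 1). Igkv4-72 was at 0, 0.336 and 0.544 CPM in untreated and 6.47, 0 and 13.4 CPM in treated mice, absent from 1 mouse of each group. Ighv8-8 was at 0.246, 0.403 and 1.66 CPM in untreated and 0.245, 14.1 and 17.5 CPM in treated mice, high in treated mice 2 and 3. Igkv5-48, the most negative log2 fold change among the DEGs without overlap, was at 0.596, 5.24 and 7.64 CPM in untreated and 0.123, 0 and 0.452 CPM in treated mice. Such segments share sequence with their relatives, so the counting could split reads between them. The list of B cell and plasma cell genes other than immunoglobulins had 0 members at P under 0.05 of 28 tested and a median of 0.11 (7 higher without untreated mouse 3). Its leading member Cd79a, part of the B cell receptor, was at 0.246, 0.772 and 1.19 CPM in untreated and 1.44, 1.78 and 1.23 CPM in treated mice (adjusted p = 0.889).

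**Figure D5:**
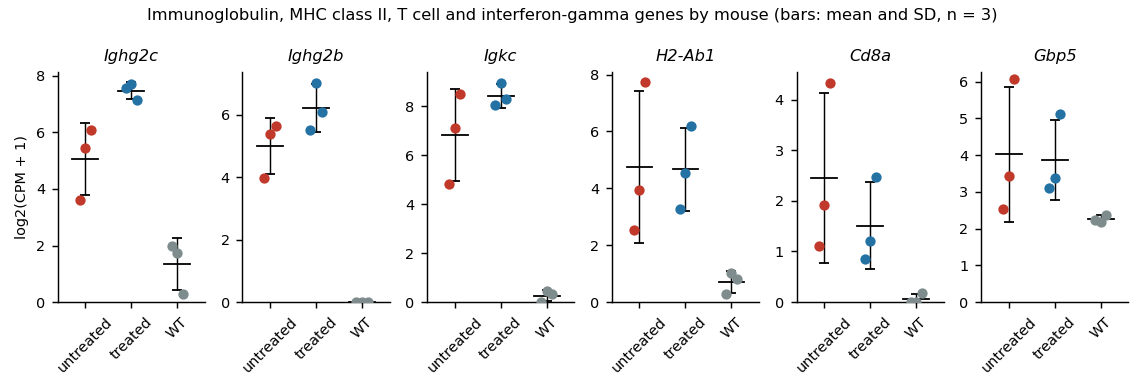
Level of 6 immune genes in each mouse as log2(CPM + 1), with the group mean and SD (n = 3). All 3 treated mice lie above the untreated mice for Ighg2c, and untreated mouse 3 is the highest mouse for H2-Ab1, Cd8a and Gbp5.

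Glial lists showed small differences with all libraries, but those of microglia, complement, phagocytosis and reactive astrocytes depended on untreated mouse 3. Of 46 myelin and oligodendrocyte genes, 4 were higher and 0 lower at P under 0.05, against 2.50% and 3.0% of all genes. The median was 0.17, with 39 values above 0. Without treated mouse 2 there were 0 higher members and a median of 0.06, and without treated mouse 3 there were 12. Fa2h, which makes the hydroxylated fatty acids of myelin lipids, was at 46, 44.2 and 37.8 CPM in untreated and 50.5, 68.1 and 47.4 CPM in treated mice, and Mog, a protein of the outer myelin sheath, at 74.1, 78.8 and 76.7 CPM in untreated and 86.6, 114 and 81 CPM in treated mice. Treated mouse 2 was the highest HD mouse for both genes, and neither was at P under 0.05 without it (0.20 and 0.14) or without untreated mouse 3 (0.29 and 0.30). Mog did not pass without untreated mouse 1 either (0.28). Astrocyte identity genes had 1 higher and 1 lower of 40. S100b, a calcium-binding protein of astrocytes, was at 118, 115 and 99.4 CPM in untreated and 135, 153 and 122 CPM in treated mice (log2 fold change 0.30, SE 0.10), and did not pass without treated mouse 2 (0.22) or untreated mouse 3 (0.23). Homeostatic microglia genes had 3 higher and 0 lower of 38, among them Gpr34, a receptor for lysophosphatidylserine, at 8.49, 12.4 and 11.2 CPM in untreated and 14.1, 17 and 14.5 CPM in treated mice. Without untreated mouse 3 that count was 18, and without untreated mouse 1 it was 0. Disease-associated microglia genes had 1 higher of 38 (13 without untreated mouse 3), the lipase Lpl at 32.3, 37.8 and 34.9 CPM in untreated and 49.7, 49.2 and 46.9 CPM in treated mice, which neurons also make. Complement had 1 higher and 1 lower of 30, phagocytosis 0 and 1 of 47, and reactive astrocytes 0 and 1 of 34, and without untreated mouse 3 the higher members of these lists were 9, 11 and 6. Leaving out that mouse moved the medians from −0.19 to 0.40 for complement, −0.06 to 0.26 for phagocytosis and −0.22 to 0.406 for reactive astrocytes. The median moved from −0.13 to 0.49 for disease-associated and from 0.02 to 0.405 for homeostatic microglia. Without untreated mouse 1 these 5 medians ranged from −0.42 to −0.17. Oligodendrocyte precursors had 2 higher and 0 lower of 20.

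Other cell types gave few calls. Choroid plexus genes had the highest median of the lists with more than 1 tested gene, 1.23 over 42 genes, with 3 higher and 0 lower at P under 0.05 (1 higher without untreated mouse 1 or untreated mouse 3). Without treated mouse 3 the median was 0.27, with 0 higher members and 13 values below 0, and there were 12 higher members without treated mouse 2 and 16 without WT mouse 1. Their summed level was 757, 587 and 556 CPM in untreated and 970, 627 and 2876 CPM in treated mice, with treated mouse 3 the highest HD mouse, and WT mice ranged from 585 to 6710 CPM. Endothelial genes had 1 higher and 1 lower of 39, meningeal fibroblasts 0 and 1 of 31, pericytes and smooth muscle 0 and 1 of 20, ependymal cells 0 and 2 of 32, infiltrating myeloid cells 2 and 0 of 19 (7 and 0 without untreated mouse 3), and 8 red blood cell genes none. The DEGs among them were Cnn1, a smooth muscle contractile protein, at 0.561, 0.47 and 0.679 CPM in untreated and 0.214, 0.165 and 0.226 CPM in treated mice, and Nnmt, a nicotinamide-methylating enzyme, at 0.316, 0.336 and 0.578 CPM in untreated and 0, 0.132 and 0 CPM in treated mice. Cd163, a scavenger receptor of border macrophages, was at 2.77, 2.79 and 3.13 CPM in untreated and 4.23, 5.14 and 5.14 CPM in treated mice, with no overlap.

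Housekeeping groups gave few calls. Of 13 mitochondrially encoded genes, 0 passed P of 0.05, although all 13 fitted values were above 0, with a median of 0.12, and 9 were higher without overlap (6.92% of all genes). Nuclear respiratory chain subunits (78) and cytosolic ribosomal proteins (85) had no member at P under 0.05, with medians of 0.01 and 0.04, while 8 ribosomal protein genes were higher without untreated mouse 3. Splicing factors had 1 higher of 103 and a median of 0.04, while 22 were higher without overlap (6.92% of all genes). That one was Hnrnph3, at a log2 fold change of 0.21 (SE 0.07). Heat shock proteins had 0 higher and 1 lower of 43, cholesterol synthesis 0 and 2 of 34 (1 and 5 without untreated mouse 3), antioxidant genes 2 and 0 of 38 (7 and 0 without it), p53 and cell death genes 0 and 2 of 36, retinoid genes 3 and 2 of 44, and Polycomb subunits 1 and 1 of 33.

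Genes tied to huntingtin gave few calls. Of 42 genes for huntingtin partners, 1 was higher and 2 lower at P under 0.05, with a median of −0.001. The higher one was Rasd2, the striatal small GTPase Rhes, which binds mutant huntingtin, at 219, 243 and 209.6 CPM in untreated and 319, 327 and 309 CPM in treated mice and 549, 821 and 636 CPM in WT (log2 fold change 0.51, SE 0.13). It is also a member of the projection neuron list. The kinesin light chain Klc2, among the lower ones, had a log2 fold change of −0.32, and did not pass without untreated mouse 1 (−0.24). The 21 genes that modify CAG repeat length, mostly of mismatch repair, had 0 members at P under 0.05 and a median of −0.06. The 20 mouse genes that carry the symbols of transcripts screened in pigs as candidate off-targets also had 0.

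Few genes with long matches to the guides passed the threshold. In GENCODE M21 transcripts, a search made after counts were seen found 73 genes other than Htt with a perfect antisense match of at least 16 bases to an HTT guide, most of them to HTT gRNA3. Of the 69 that were tested, 2 were higher and 2 lower at P under 0.05 (2.90% each, beside 2.50% and 3.0% of all genes), with a median of −0.04. Without overlap between the groups, 5 were higher (6.92% of all genes) and 10 lower (8.83% of all genes). The longest match outside Htt was in Memo1, 19 bases of HTT gRNA3, with a log2 fold change of −0.28 (SE 0.13, adjusted p = 0.889) and no overlap between the groups. Gbx1, with 17 bases of the same guide, was the DEG among them and was higher, at 0.386, 0.47 and 0.272 CPM in untreated and 0.827, 1.05 and 1.16 CPM in treated mice. The other higher gene was Dlx5 (18 bases of HTT gRNA3, log2 fold change 0.41), and the lower ones were Cux2 (18 bases of HTT gRNA3, −0.63) and Cdk16 (16 bases of HTT gRNA4, −0.19). Dlx5 did not pass P of 0.05 without untreated mouse 1 (0.44) or 3 (0.34). Cux2 did not pass without untreated mouse 3 (−0.45), nor Cdk16 without untreated mouse 1 (−0.14). With the cortical covariate neither Dlx5 (0.21) nor Cux2 (−0.27) passed. All of these genes were picked after their values were seen. A perfect match is a description of these letters, not a measured cut.

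Most DEGs with the largest folds by the naming rule were genes of low level, though Ighg2c, described above, was not. The 4 listed Y-linked genes, with log2 fold changes from −12.2 to −10.4, overlapped between the groups and fall outside that rule. Among DEGs without overlap and with a mean of at least 10 counts, the largest positive folds besides immunoglobulins included Hoxc4, a homeobox factor of the spinal cord and B cells, at 0, 0.168 and 0 CPM in untreated and 0.644, 0.395 and 0.452 CPM in treated mice, the only one of 39 Hox genes that passed the filter. Xlr3b and Xlr3a, X-linked genes of a near-identical family, were at 2.77, 1.38 and 1.46 CPM in untreated and 12.9, 4.94 and 6.36 CPM in treated mice and at 0.456, 0.672 and 0.781 CPM in untreated and 2.97, 1.28 and 2.36 CPM in treated mice. Reads of these 2 genes could be split between the copies. Wdr86 stood at 0.526, 0.437 and 0.204 CPM in untreated and 1.81, 0.56 and 5.94 CPM in treated mice and Best3, a chloride channel, at 0.21, 0.168 and 0.0679 CPM in untreated and 0.337, 0.527 and 0.711 CPM in treated mice. WT mice had 0.529, 18.3 and 4.55 CPM of Wdr86 and 0.189, 1.76 and 0.964 CPM of Best3, a wider range than the gap between the HD groups. Also among them were the unannotated transcripts Gm38058 and 6530401F13Rik and the segments Igkv3-7 and Ighv1-55. At P of 0.05, Wdr86 did not pass without untreated mouse 1 (3.10) or 3 (2.52), nor did Best3 (2.1 and 1.45). Gm38058 (1.62) and Ighv1-55 (1.49) did not pass without untreated mouse 1.

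After Igkv5-48, the most negative folds by the same rule included Nnmt and the long noncoding RNA AC113104.3. Cd96, a receptor of T and NK cells, was at 0.421, 0.336 and 1.32 CPM in untreated and 0.123, 0.132 and 0.291 CPM in treated mice, and Samd3, which lymphocytes make, at 0.877, 0.806 and 1.46 CPM in untreated and 0.214, 0.395 and 0.291 CPM in treated mice. Unc5cl, a death-domain protein, was at 0.737, 0.336 and 1.32 CPM in untreated and 0.245, 0.132 and 0.226 CPM in treated mice and Gm45140 at 5.93, 2.05 and 2.28 CPM in untreated and 1.47, 1.05 and 0.646 CPM in treated mice. The remaining ones were Igkv13-84, the olfactory receptor Olfr464 and the pseudogene CT025671.2. Olfr464 did not pass P of 0.05 without untreated mouse 1 (−1.99) or 3 (−1.97). Of the 150 DEGs, 111 showed no overlap between the groups (53 higher and 58 lower), beside 6.92% higher and 8.83% lower of all genes. DEGs were picked by P and fold from the same values, so this count is no separate support for them. Of the lower DEGs, 5 lie on the Y chromosome, and of the higher ones 4 lie on the X chromosome. In none of the lists were 56 of the higher and 67 of the lower DEGs. Outside X and Y the DEGs were 66 higher and 75 lower.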

How the data were processed

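Libraries were made from mouse striatum by 3′ mRNA sequencing with a poly(T) primer. The deposited values used here are raw read counts per gene, which the authors made without normalisation. The study's methods name STAR as the aligner, whereas the submitters' processing notes for the series list Trimmomatic 0.39, FastQC 0.11.9, HISAT2 2.2.1 and featureCounts 2.0.1. The mouse genome build is not given in the sources used here, so no coordinates are printed. Gene symbols, chromosomes and types were looked up in GENCODE M21, which named 94.1% of the gene IDs and 99.8% of the counts.

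All 9 mouse libraries (27184356 to 32102121 counts) were fitted in edgeR 4.0.16 (R 4.3.3) with TMM scaling, the filterByExpr filter by group and the quasi-likelihood test, with 6 residual degrees of freedom, and treated mice were contrasted with untreated mice. P is the unadjusted value, adjusted p is by Benjamini-Hochberg over all 19463 genes, and DEGs have P under 0.05 and at least a 2-fold change. The SE of a log2 fold change is its size divided by the square root of F. List means are of log2 CPM with a prior count of 2. DESeq2 1.42.0 gave an adjusted p for 16421 genes. The scripts were tested on simulated data. Files of the authors' pig libraries were not used here.

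Members and gene lists were chosen with earlier results of these data known. Named genes are Htt, the 10 largest positive and negative folds among DEGs without overlap and with a mean of at least 10 counts in the higher group, the 10 smallest P values, the 10 smallest among genes of at least 10 CPM, and in each list up to 4 with the smallest P and the DEGs where there are at most 6. Other named genes, among them Xist, Cd8a, Rasgrf2, Ddit4l, Dgkz, Bcl6 and Mef2c, were chosen after their values were seen. Some results are not reported here.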

Additional observations from a re-analysis of the deposited data

How the results depend on the processing

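The count of DEGs, 150, depended most on the filter and the threshold. It was 485 (241 higher, 244 lower) with no expression filter, which tested 35346 genes, 43 (16 and 27) with at least 10 counts in every library, 33 (18 and 15) at P under 0.01, and 0 (0 higher, 0 lower) at an adjusted p of 0.05 with a 2-fold change. With the cortical marker level as a covariate, an alternative added after seeing the data, it was 230, of which 152 were lower. Leaving out 1 library gave 172 to 263 DEGs, 67 to 184 higher and 79 to 134 lower. The most DEGs (263) and the most higher ones were found without untreated mouse 3, and the most lower ones without untreated mouse 1. The genes past an adjusted p of 0.05 were 48 in DESeq2 and 0 to 1 without 1 library. The cause of these shifts was not tested.

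Library size scaling gave 146 DEGs, the 6 HD libraries alone 168, and a covariate for the Y-linked share 187. With the replicate number as a block, edgeR gave 163 DEGs and 0 genes at an adjusted p of 0.05. The deviations of same-numbered treated and untreated mice had correlations of 0.191, −0.003 and 0.236. The untreated mouse with the highest correlation was mouse 1 for treated mouse 1, and mouse 3 for treated mice 2 and 3. Whether the numbers pair the mice was not tested.

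Among named genes, the log2 fold change of Slc17a7 was 0.078 with the cortical covariate. Without 1 library it ranged from −2.84 to 0.18 for Cd8a, −0.97 to 0.13 for Herc6, −2.37 to 0.15 for Ifi206, −2.27 to 1.18 for Gbp8, −1.65 to 1.21 for Gbp5, −2.30 to 1.81 for H2-Ab1 and −1.55 to 0.32 for Ciita, the positive end in each being the fit without untreated mouse 3. Htt stayed between −0.12 and −0.07 without 1 library and did not pass P of 0.05 in any alternative. Of the 150 DEGs, 146 had a mean of at least 10 counts in the higher group.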

Other observations

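Some genes split the mice in ways that follow no group, and they were chosen after their values were seen. Phc3, a Polycomb subunit and a DEG, was at 83.9, 90.3 and 15.6 CPM in untreated and 14.8, 15.1 and 16 CPM in treated mice and 15.6, 14.9 and 84.3 CPM in WT. Its high level was shared by untreated mice 1 and 2 and WT mouse 3, and the other 6 mice lay close together. Chml, a Rab escort protein, was at 13.9, 15.6 and 1.73 CPM in untreated and 12.7, 1.88 and 13.3 CPM in treated mice. A low level was found in untreated mouse 3 and treated mouse 2.

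Prl, the pituitary hormone prolactin, was at 0, 26.3 and 0.476 CPM in untreated and 0.0919, 0 and 0 CPM in treated mice, so that untreated mouse 2 alone carried it at more than 1 CPM. Ttr, transthyretin, a protein secreted by the choroid plexus, was at 159.5, 33 and 21.2 CPM in untreated and 204, 21.9 and 1136 CPM in treated mice and 45.3, 3458 and 1076 CPM in WT. Treated mouse 3 was the highest HD mouse (adjusted p = 0.923).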
